A study of Mus musculus with 4 samples.

Results

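Accessible chromatin was measured by single-cell ATAC-seq in long-term hematopoietic stem cells (LT-HSCs) from old mice. The cells described here carry barcodes that end in suffix 2 in the table of CLCA3A1high and CLCA3A1low cells. Of the 1454 cells in that table, 636 carried the suffix and 560 also had at least 4899 counts, which is the 10th percentile of counts per cell over the whole table. The 3 cells just inside this minimum had 4900, 5168 and 5177 counts, and the 3 just outside had 4871, 4865 and 4848. The question was which gene loci are most widely open in these cells, which loci vary from cell to cell beyond sampling, which vary together, and whether a minor group of committed cells lies among them.

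The series comprises 4 samples, and the 2 named for this table are CLCA3A1high and CLCA3A1low LT-HSCs of C57BL/6JRj mice aged 22 to 28 months. The study's methods name female mice, c-Kit enrichment, exclusion of cells stained for lineage markers of T cells (CD3, CD4 and CD8), B cells (B220), myeloid cells (CD11b and Gr1) and erythroid cells (TER-119), and a gate on CD34neg CD135neg LSK cells, so that CD34 and CD135 (the protein of Flt3) were gate markers. CLCA3A1 is a surface protein, and cells were split into high and low by an antibody to it. For each sample, 2500 cells of each of 4 mice were pooled to give 10000 sorted cells. No label pairs a suffix with CLCA3A1high or CLCA3A1low, or a cell with a mouse. The 560 cells are therefore 1 pooled library with no replicate, cells are not replicates, and no p-value is given.

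LT-HSCs sit at the top of the blood hierarchy and rarely divide. Their identity is held by transcription factors such as Mecom, Hlf, Meis1, Erg and Gata2, while PU.1, the product of Spi1, and Runx1 open enhancers for myeloid and lymphoid fates. Flt3 encodes a cytokine receptor that appears as cells leave the stem cell state, Cd34 encodes a surface sialomucin and Cd48 a SLAM family protein, and all are used to part LT-HSCs from their progeny. TAZ, the product of Wwtr1, is a coactivator that reaches DNA through TEAD factors, and Amotl2 is a widely used target gene.

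The 560 cells held 9630246 counts in total and between 4900 and 136173 counts each, with a median of 14353. A count is a Tn5 cut site, and each fragment has a cut site at either end. Accordingly, 88.0% of the values above 0 were even numbers. Counts were converted to fragments by dividing by 2 and rounding up, and each cell was thinned to 2607 fragments, the depth of the shallowest cell, before cells were compared. At this depth a cell had a fragment in 1469 to 2484 of the 93513 peaks, with a median of 2414. A median of 51.4% of fragments lay in promoter peaks (range 41.7% to 70.1%), defined as peaks within 1000 bp of a protein-coding start. No barcode was shared between the suffixes. The cells with suffix 1 (742 cells at the same depth) are set beside these values only where a result turns on them.

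Fragments were not spread evenly over the chromosomes in every cell. In 23 of the 560 cells (4.11%) at least 1 chromosome carried 2 times the share of the median cell or more, and in 4 cells 3 times. The most uneven cell, with 6850 counts, had 715 of its 2607 fragments on chromosome 3 and 554 on chromosome 6, which were 5.33 and 3.98 times the share of the median cell, but 0 on chromosomes 10, 13 and 16. A cell with 5222 counts had 864 fragments on chromosome 6, 6.21 times the share of the median cell, and 478 on chromosome 8. A cell with 21218 counts had 658 fragments on chromosome 1, 4.07 times that share. Such cells were also found with suffix 1, where 38 of 742 cells (5.12%) had a chromosome at 2 times the share of the median cell or more. What sets these cells apart was not tested.

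A locus was taken as the body of a GENCODE protein-coding gene plus 5000 bp upstream, and called open in a cell when at least 1 fragment fell in any of its peaks. Of 21924 loci, 17159 held a peak. The typical locus was open in few cells at this depth, with a median of 10.4% over the loci with a peak. In all, 1840 loci were open in at least 25% of the cells and 98 in at least 50%. Intervals given with shares are exact 95% binomial intervals that cover counting error only.

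**Figure D1:**
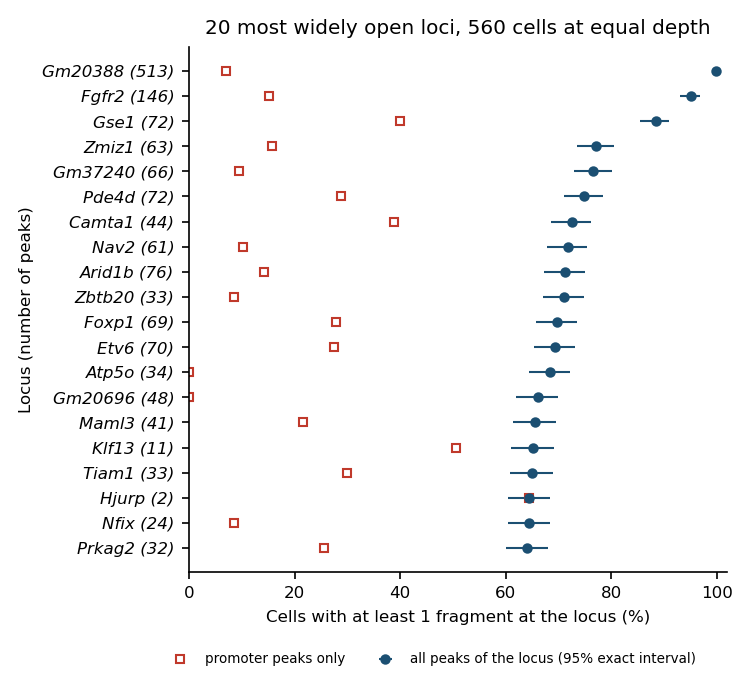
The 20 loci open in the most cells, with the number of peaks of each locus in brackets. The x axis is the share of the 560 cells with at least 1 fragment at the locus, filled circles count all peaks with exact 95% intervals, and open squares count promoter peaks only. All 20 lie at 64.1% or above with all peaks, while 18 of the squares lie at 40% or below, Klf13 and Hjurp being the exceptions.

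The most widely open loci were large loci with many peaks, which gave them more chances to be hit. Gm20388, a read-through model that spans many neighbours, had 513 peaks and a fragment in 99.8% of the cells. Fgfr2, a fibroblast growth factor receptor, had 146 peaks and was open in 95.2% of cells (95% interval 93.1% to 96.8%). Gse1, a component of a histone-deacetylase complex whose 72 peaks all lie within Gm20388 as well, was open in 88.4% (85.4% to 90.9%). Zmiz1, a transcriptional coregulator, followed at 77.1%, the read-through model Gm37240 at 76.6%, the phosphodiesterase Pde4d at 74.8% and the calmodulin-binding activator Camta1 at 72.5%. Nav2 was open in 71.8% of cells, the chromatin remodeller Arid1b in 71.2% and the repressor Zbtb20 in 71.1%. Transcription factors of blood cells followed, with Foxp1 at 69.6% and Etv6, which stem cells need in the adult marrow, at 69.3%. Atp5o, Gm20696, Maml3, Klf13, Tiam1, Hjurp, Nfix and Prkag2 lay between 64.1% and 68.4%. The intervals of neighbours in this order overlapped from Zmiz1 downward. Over loci with a peak, the share of open cells followed the number of peaks (Spearman's rho of 0.52 across 17159 loci, which are not independent).

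When only peaks at a start were counted, a different set of loci led, and only Hjurp and Klf13 belonged to both lists of 20. Hjurp, the centromere histone chaperone, was open at its promoter in 64.5% of cells, but its peaks gave up to 45 fragments in 1 cell, as described below. Its 2 peaks cover 65.9 kb. Widths differed among these loci, with 1 peak of 12.6 kb at Zfp36 and 1 of 8.65 kb at Jun, against 2.78 kb over 2 peaks at Sp1. A fragment in a wide peak need not lie near the start. Sin3a, the scaffold of a corepressor complex, was open at its promoter in 55.0% (50.8% to 59.2%), and Mnt, a repressor that pairs with MAX, in 54.8%. The repressor Cic followed at 53.8%, the chromatin reader Ing1 and the circadian gene Per1 at 52.0% each, and Ppp2r3d at 51.8%. The immediate early gene Jun and the Krüppel-like factor Klf13 were each open at their promoter in 50.5% of cells. Mob3a, Trmt1, Zfp36, Sp1, Ier2, Jund, Iqcn, Plec, Lyl1, Sertad2 and E2f3 lay between 42.9% and 49.5%, and among them Lyl1 encodes a basic helix-loop-helix factor of stem cells and Zfp36 an mRNA-decay factor of the stress response. The intervals of Sin3a and Zfp36 overlapped, so the order between them is not resolved. Of the 20 loci that led with all peaks, 17 were also among the leading 20 with suffix 1.

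Per kb of peak, short loci with a single promoter peak led. Among the 10 loci with the largest share of open cells per kb of peak, Zfp317 reached 19.5% per kb, Gm10647 19.3%, Ensa 18.5% and Aldh6a1 18.1%, and 1810022K09Rik, Med19, Tbl2, Zfp78, Slc25a42 and Dnpep had 17.2% per kb or more. All but Zfp78, with 2 peaks, had 1 peak.

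The label of the cells was checked against marker loci. Of 20 loci of LT-HSC genes, 19 held a peak. Mecom (chr3:29951296-30548008, minus strand, 52 peaks) was open in 54.1% of cells (49.9% to 58.3%), Meis1 in 49.6%, Erg in 40.9%, Gata2 (chr6:88193891-88207032, plus strand) in 29.8%, Mllt3 in 27.0%, Lmo2 in 23.8% and Hlf in 23.4%. Per kb of peak these loci had similar levels, 0.0222 fragments per cell at Mecom, 0.019 at Meis1, 0.0164 at Erg and 0.0231 at Gata2. The SLAM marker gene Slamf1, which encodes CD150, was open in 7.68% of cells and Procr in 1.61%, while Ly6a held no peak. Genes of mature cells varied. At equal depth Cd79a, Gata1 and S100a9 had no fragment in any of the 560 cells, which allows a share of up to 0.536% each, while Cd4 had a fragment in 0.179% of cells and Mpo in 1.61%. Other lineage loci were open in more cells, with Cx3cr1 at 48.8% over 24 peaks, Prtn3 at 18.04%, Lck at 17.1%, Ebf1 at 15%, Pax5 at 13.9%, Cd3d at 8.39% and Elane at 6.79%. Cd3e, Cd3g, Cd8a, Ms4a1, Hba-a1, Hbb-bs, Ppbp and Camp held no peak and give no information. An open locus does not show that the gene is expressed, and the label could be checked only this far.

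The 3 loci tied to the gate or to progenitors were open in part of the cells. Flt3 (chr5:147330741-147400489, minus strand, 12 peaks) had a fragment in 162 of 560 cells, or 28.9% (25.2% to 32.9%), although its protein had been gated out. With suffix 1 the share at Flt3 was 16.6% (13.97% to 19.45%), and this difference between pooled libraries has no replicate check. Cd34 (chr1:194938819-194961279, plus strand) was open in 7.86% of cells and Cd48 (chr1:171682009-171705258, plus strand) in 5.89%. Per kb of peak the levels were 0.0473 fragments per cell at Flt3, 0.0365 at Cd34 and 0.0347 at Cd48. They lay above the values given before for Mecom, Meis1, Erg and Gata2, which are only part of the stem cell list. They also lay within the range of the most widely open loci, from 0.0171 at Etv6 to 0.0585 at Klf13. Whether progenitor loci as a set exceed stem cell loci per kb was not tested. Clca3a1 was open in 2.14% of cells, Wwtr1 in 23.9% and its target Amotl2 in 16.8%.

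Variation from cell to cell was first asked of each locus alone. For each of 13044 loci with at least 0.05 fragments per cell, the variance over cells was divided by the variance that sampling alone gives at equal depth. This index is 1 when cells differ by sampling only. A locus was called variable when its index exceeded 1 by more than 4 sampling standard errors and was at least 1.2. The median index was 1.07, and 147 loci (1.13% of those tested) were called. The rule is coarse. A locus at the median of 0.145 fragments per cell had to reach an index of 1.5, which means a coefficient of variation of 187% between cells, and Flt3 would have needed 97.8%. A locus that was not called may thus still vary.

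**Figure D2:**
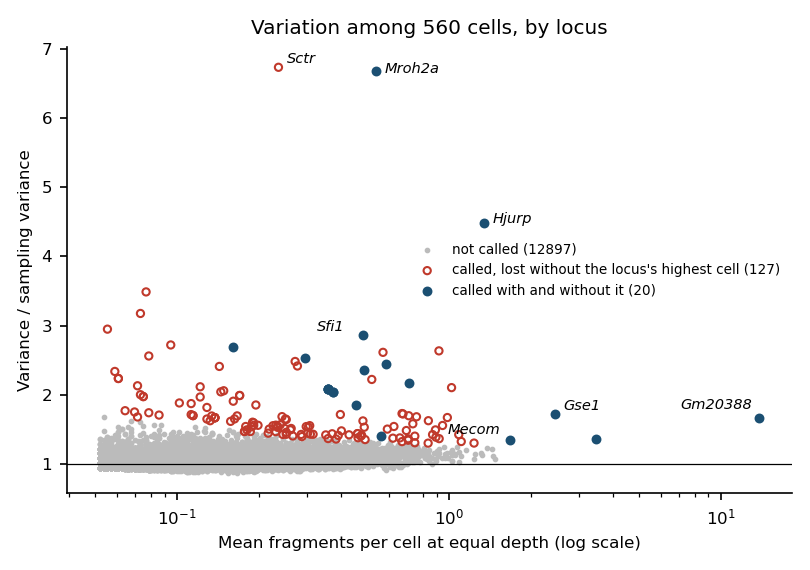
The index of each of 13044 loci (variance over cells divided by the sampling variance, y axis) against its mean fragments per cell on a log scale (x axis). Open red circles are the 127 called loci that fell below the rule without the cell that had the most fragments at the locus, and filled blue circles are the 20 that stayed above it.

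Most calls rested on 1 cell per locus. The cell with 6850 counts was the highest at 43 of the 147 called loci, the cell with 5222 counts at 18, the cell with 21218 counts at 16 and a cell with 21372 counts at 15, so that 4 cells held the highest value at 92 called loci. Without the highest cell of each locus, 20 loci (0.153%) were called, all among the 147. Sctr, a secretin receptor gene with the highest index of 6.73, had 28 fragments in 1 cell against a mean of 0.236, and its index was 1.10 without that cell. Onecut2 fell from 3.49 to 0.94, Sh3gl2 from 3.18 to 1.01, Ssbp3 from 2.62 to 1.12 and Rbfox3 from 2.42 to 1.12. The other loci among the 25 with the highest index that fell below the rule were Dsg2, Tlr5, Trpm8, Fam166b, Zfp503, Sorbs3, 4931408C20Rik, Ugt1a5, Ugt1a2, Pde10a, Tfap2c and Rprd2.

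The loci that stayed were of a few kinds. Mroh2a kept an index of 3.08 and its neighbour Hjurp one of 2.07, and they share 1 of their 2 peaks each. Sfi1 (1.85), Eif4enif1 (1.61) and Drg1 (1.49) are on chromosome 11, and Gm10800, Gm21738, Gm10715, Gm10717, Gm10718, Gm10719, Gm10720 and Gm17535 are predicted gene models, with indices of 1.44 to 1.84 without the highest cell. Gm10715, Gm10717, Gm10718 and Gm17535 had 1 peak of 23.5 kb each and identical values (137 open cells, index 1.71). Gm10719 and Gm10720 also had values identical to each other (145 open cells, index 1.68). With suffix 1, Sfi1 had an index of 4.11, Gm21738 one of 5.45 and Gm10800 one of 2.71. Fragments at near-identical copies of a gene or repeat can be assigned to any of them, so the position of these counts is uncertain. Dmrta2 (1.81), Plekha2 (1.48), Gse1 (1.35), Atp10a (1.33), Fgfr2 (1.30) and Pde4d (1.30) completed the list with Gm20388 (1.56). In the alternatives computed on fragments, which leave aside the counts as deposited and each peak taken once per cell, 12 loci were called each time, namely Mroh2a, Hjurp, Sfi1, Gm10800, the 6 models on chromosome 9, Gm20388 and Gse1. As the 6 models had identical or similar values and Gse1 lies within Gm20388, the 12 loci are not 12 separate observations.

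Counting each peak once per cell left 5 called loci, which were Sctr, Bcar3, Zfhx3, Gm20388 and Rbfox3. The indices of Sctr, Gm20388 and Rbfox3 were then 1.97, 1.39 and 1.48. Single peaks also varied away from protein-coding starts, the only starts considered here. The non-promoter peak with the highest index, chr17:39842796-39849035, lay in no protein-coding locus and had 3.69 fragments per cell, up to 134 fragments in 1 cell and an index of 13.8. The other 9 of the 10 most variable non-promoter peaks, which lay at Maml3, Sorbs3, Dmrta2, Ppt1, Knop1, Ppp1r16b, Iqcn and Pkp3 and outside any locus, had between 4 and 8 fragments in their highest cell and a fragment in 7 to 24 cells.

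Among the gene lists, 4 members were called, against 1.13% of all tested loci. Of 16 LT-HSC loci tested, Mecom was called with an index of 1.37. It had to pass 1.297, and its index was 1.291 without its highest cell and 1.31 in the largest cluster of cells described below. Fosb (1.38) and Zfp36 (1.58) were called among 13 immediate early loci, and Hsp90ab1 (1.36) among 10 housekeeping loci. All 4 lost their call without the highest cell of the locus. Flt3 had an index of 1.26 ± 0.09 (sampling SE), Cd34 of 1.12 ± 0.16 and Cd48 of 1.05 ± 0.18, all below the rule. In a second random draw of fragments the index of Flt3 was 1.02 and that of Cd34 1.33, so these single-locus values moved with the draw.

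Co-variation was asked in the same way, locus against locus. Over 8364 pairs of distinct called loci on different chromosomes, the mean correlation across the 560 cells was 0.037, against -8.1e-05 over all pairs of tested loci on different chromosomes. Without the 4 cells that led most calls it was 0.003. Grouping the called loci by their correlation gave 4 sets with at least 5 loci on 3 chromosomes or more. The largest held 41 loci on 8 chromosomes, among them Erich3, Rprd2, Tmem176b, Knop1, Pde10a, Prkacb, Myh9 and Esrp2, with a mean correlation of 0.305 between loci on different chromosomes. All 41 were highest in the cell with 6850 counts, and without it the mean correlation was 0.00080. A set of 11 loci around Ugt1a5, Ugt1a6b, Hjurp, Mroh2a, Trpm8, 4931408C20Rik, Ugt1a10 and Clk3 fell from 0.360 to -0.0046 without the cell with 21218 counts. A set of 5 loci, Sorbs3, Pdlim2, Eif4e2, Prep and Ppp1r9a, fell from 0.371 to -0.0054 without the cell with 5708 counts. The last set was different. Its 11 loci, led by Sfi1, Eif4enif1, Drg1, Gm21738, Gm10720, Gm10718, Gm10800 and Samd14, had a mean correlation of 0.387. This value fell to 0.148 without their leading cell and was 0.259 with suffix 1. Sfi1, Gm21738, Gm10720, Gm10718 and Gm10800 are among the loci whose counts have an uncertain position, as described above. Eif4enif1 lies within Drg1, which overlaps Sfi1. The part of fragments assigned among near-identical copies in this correlation was not tested.

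Correlations of single loci with Flt3, Cd34 and Cd48 were weak, as counts of this size allow. On other chromosomes, the 8 loci most like Flt3 (Ipo11, Tctex1d2, Mthfsd, Tk2, Dohh, Cacfd1, Rcbtb1 and Osbpl8) had correlations of 0.14 to 0.16, where the SD over all loci was 0.042. For Cd34 the 8 loci (Cmklr1, Alg8, Taf1c, Cd1d1, Efna5, Slc12a4, Dnaaf2 and Gm49384) reached 0.17 to 0.21, and for Cd48 (Kcnip2, Clk3, Sgsh, Otx1, Loxl3, Soat2, Gm525 and Trpc5) 0.20 to 0.30. In sparse counts such values describe shared cells and are no finding.

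A variation too small to see at a single locus can be seen when many loci move together. The cells were arranged by latent semantic indexing, which finds the main directions in which open peaks differ among cells, and clustered. This gave a large cluster of 521 cells and a group of 39. Within the 521 cells, the indexing was run separately on the peaks of odd-numbered chromosomes and on those of the other chromosomes, so that each cell had a pair of scores from peaks that had nothing in common. This step was chosen after the single-locus results had been seen. The scores on the leading component after the first correlated at 0.89 over the 521 cells (Spearman's rho of 0.90), while the next 2 components correlated at -0.03 and 0.04. Both scores share the cell's library, depth and base composition. They also moved with the promoter share of fragments (r of -0.54 and -0.49) and weakly with the log of the counts (0.21 and 0.27), and their correlation given both measures was 0.84. With non-promoter peaks alone it was 0.91, and with promoter peaks alone it was 0.14. The variation was graded, with combined scores from -2.15 to 2.41 SD and a median of 0.00 SD, and no gap between groups of cells was used.

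**Figure D3:**
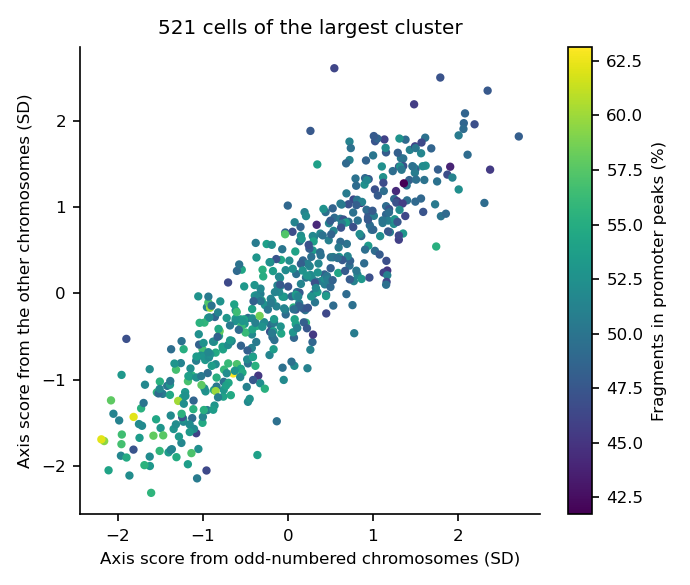
Axis score from odd-numbered chromosomes (x axis) against the score from the other chromosomes (y axis), each in SD, for the 521 cells of the largest cluster, 1 point a cell, coloured by the share of fragments in promoter peaks in percent. The points form 1 continuous band, and low scores go with higher promoter shares.

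The direction of the axis was set so that Flt3 rises along it. Each locus was compared with the score from the group of chromosomes that does not hold it. Among 13053 loci tested in the 521 cells, 367 (2.81%) had a correlation of at least 0.1 with the score and 422 (3.23%) one of -0.1 or below, and the SD over loci was 0.053. To give the size of these differences, the 173 cells with the highest score were set beside the 173 with the lowest. These are ranges of a graded score and not cell types.

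At the Flt3 end, the 25 loci with the highest correlation were of varied function. Flt3 itself had a fragment in 66 of the 173 highest cells, or 38.2% (30.9% to 45.8%), and in 36 of the 173 lowest, or 20.8% (15.02% to 27.63%), with a correlation of 0.21. Kif17, a kinesin gene, was open in 45.7% against 19.1% and had the highest correlation of all loci, 0.26. Its neighbour Sh2d5 shares 4 peaks with it and rose from 9.83% to 35.3%. Panx1, which encodes a channel that releases ATP, was open in 46.2% against 20.2%, the sialyltransferase gene St8sia1 in 48.6% against 24.9% and Ccdc88c in 45.7% against 22.0%. Cd244a, a SLAM family receptor next to Cd48, was open in 16.2% against 4.05%, the myeloid surface gene Cd33 in 16.2% against 4.62%, the purinergic receptor P2ry12 in 16.2% against 5.78% and Trpm2 in 16.2% against 2.31%. Further loci among the 25 with the highest correlation were Fam234b, Rapsn, Nos1, Atf3, Rgs2, Pkd1l2, Slc15a3, Alg9, Rpe, Pgghg, Jakmip1, Gbe1, Ntrk3 and Zyx, at correlations of 0.16 to 0.20.

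The 25 loci at the opposite end were also varied and included 3 of the LT-HSC list, Gata2, Ctnnal1 and Pdzk1ip1. Cavin2, a caveolar coat gene of platelets and endothelium, was open in 17.9% of the 173 lowest cells (12.5% to 24.5%) and 4.05% of the 173 highest (1.64% to 8.16%), at a correlation of -0.24, the lowest of all loci. Gata2 was open in 37.6% against 20.8% at a correlation of -0.16, and Ctnnal1, known for its expression in stem cells, in 20.8% against 8.67%. Pdzk1ip1 was open in 13.9% against 5.78%, Ryr2, a calcium channel gene, in 16.8% against 1.73%, and Mrtfb, a coactivator of serum response factor, in 28.9% against 15.6%. Thsd4 was open in 31.8% against 12.7%, Xxylt1 in 63.6% against 38.7% and Hif3a in 27.7% against 12.1%. The other loci among the 25 at this end were Fbxl19, Cnga4, Lhcgr, Chrm3, Rnf20, Slc25a33, Wdfy3, Fam160a2, Ttc39d, Schip1, Fam160b2, Kmt5c, Usp29, Kcnb2, Gtdc1 and Sema6d, at correlations of -0.15 to -0.21.

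The gene lists divided along the same axis. Of 16 multipotent and lymphoid-primed progenitor loci tested, 4 had a correlation of at least 0.1 (2.81% of all loci did) and 0 had one of -0.1 or below, and the median was 0.06 against -0.01 over all loci. The 4 were Flt3, Cd48, Cdk6, a cell cycle kinase, and Ikzf1, a lymphoid transcription factor. The sign of Flt3 was set by the direction of the axis, so 3 of the other 15 loci bear on the list. Cdk6 was open in 37.6% of the highest and 26.6% of the lowest cells, Ikzf1 in 35.3% and 23.1%, and Cd48 in 9.25% and 2.89%. Cd34, at 0.099, was just below the limit and was open in 11.0% and 2.89%. Among 11 neutrophil and monocyte loci, Cebpa, the myeloid factor, was open in 17.9% and 8.09%, and Ly86 in 11.6% and 4.62%, the only 2 past 0.1. Of 16 LT-HSC loci, 0 reached 0.1 and 5 had -0.1 or below (31.2%, against 3.23% of all loci), with a median of -0.06. These were Gata2, Ctnnal1, Pdzk1ip1, Hoxb5 and Mllt3. Not all stem cell loci took part, since Mecom had a correlation of -0.07, Hlf of -0.03, Erg of -0.03 and Meis1 of 0.03.

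Of 17 loci of the aged HSC and TAZ list, Amotl2 (-0.15, open in 24.9% of the lowest and 11.0% of the highest cells) and Fhl1 (-0.10) passed the limit at the end opposite to Flt3, and 0 passed it at the Flt3 end. Wwtr1 itself had a correlation of -0.03, with 27.2% of the lowest and 23.7% of the highest cells open and overlapping intervals, and Spi1, which encodes PU.1, had one of -0.02. Mmrn1 was the 1 of 15 megakaryocyte and platelet loci past the limit, at -0.14. In the erythroid, mast cell, B cell and housekeeping lists, 0 loci passed it in either direction. The T and NK cell list had 1 locus at -0.1 or below and 0 above, as had the lists for MHC class II, endothelium and stroma, and interferon response. The immediate early list had 1 at each side, Atf3 at 0.19 and Fosb at -0.13.

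**Figure D4:**
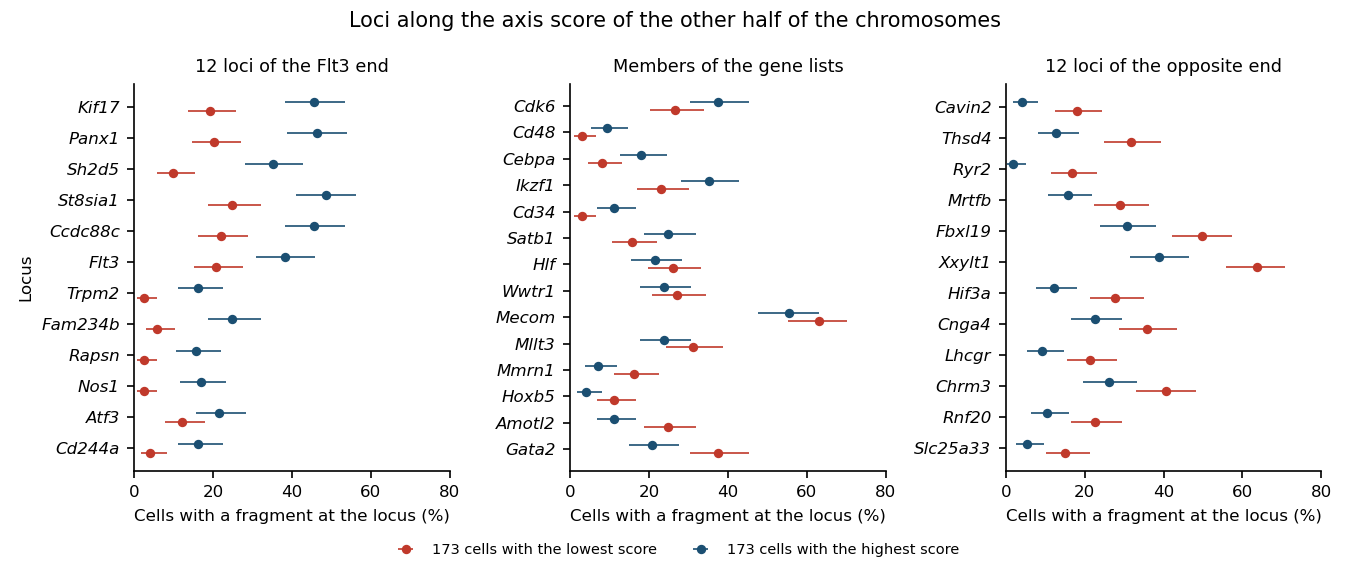
Share of cells with a fragment at a locus (x axis, percent, with exact 95% intervals) in the 173 cells with the lowest axis score (red) and the 173 with the highest (blue), the score taken from the group of chromosomes without the locus. The left panel shows the 12 loci with the highest correlations, the right panel the 12 with the lowest, and the middle panel list members from Cdk6 (0.14) to Gata2 (-0.16), among which the intervals of Mecom, Hlf and Wwtr1 overlap.

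Non-promoter peaks at both ends are shown as examples, with the letters of short words that the factors named above are known to bind. They were chosen after the values were seen, as the 3 peaks outside exons with the highest, and the 3 with the lowest, correlation among the 4656 non-promoter peaks open in at least 5% of the 521 cells whose central 250 bases held the PU.1 word GAGGAAGT (Flt3 end) or a GATA or TEAD word (opposite end). The sequences are the central 250 bases of each peak on the plus strand of GRCm38, and the capitals mark the word in either direction. On the Flt3 end they ranked 24, 39 and 45 among all 4656 peaks, and on the opposite end 5, 7 and 8. Each peak holds its word by this choice, so the sequences do not show which words lead an end.
chr8:40584733-40584982, intron of Mtmr7: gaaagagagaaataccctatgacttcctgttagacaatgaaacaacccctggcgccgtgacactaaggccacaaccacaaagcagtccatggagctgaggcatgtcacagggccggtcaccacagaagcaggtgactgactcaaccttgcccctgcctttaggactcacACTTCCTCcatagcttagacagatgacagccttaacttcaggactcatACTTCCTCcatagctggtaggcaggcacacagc
chr7:78684987-78685236, intron of Ntrk3: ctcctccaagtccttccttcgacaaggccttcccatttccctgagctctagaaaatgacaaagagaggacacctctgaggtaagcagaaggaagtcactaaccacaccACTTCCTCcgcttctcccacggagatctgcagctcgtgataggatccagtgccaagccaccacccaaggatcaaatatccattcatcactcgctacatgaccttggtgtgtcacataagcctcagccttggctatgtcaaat
chr2:151587494-151587743, intron of Sdcbp2: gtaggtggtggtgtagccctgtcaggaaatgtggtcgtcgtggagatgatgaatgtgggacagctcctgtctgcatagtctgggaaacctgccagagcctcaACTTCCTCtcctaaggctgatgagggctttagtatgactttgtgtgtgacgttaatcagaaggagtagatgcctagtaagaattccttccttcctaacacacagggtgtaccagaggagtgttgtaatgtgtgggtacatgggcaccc
chr9:75547256-75547505, intron of Tmod3: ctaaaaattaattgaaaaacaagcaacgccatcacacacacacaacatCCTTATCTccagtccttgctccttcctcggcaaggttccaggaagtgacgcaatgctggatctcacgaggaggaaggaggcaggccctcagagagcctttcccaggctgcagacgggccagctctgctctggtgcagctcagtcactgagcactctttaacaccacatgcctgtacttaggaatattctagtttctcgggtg
chr2:167383836-167384085, intergenic, nearest start B4galt5: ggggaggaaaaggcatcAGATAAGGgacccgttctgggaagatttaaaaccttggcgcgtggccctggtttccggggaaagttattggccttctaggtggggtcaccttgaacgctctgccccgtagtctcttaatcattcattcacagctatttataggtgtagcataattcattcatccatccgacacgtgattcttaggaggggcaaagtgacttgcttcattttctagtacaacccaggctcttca
chr4:119077023-119077272, intergenic, nearest start Slc2a1: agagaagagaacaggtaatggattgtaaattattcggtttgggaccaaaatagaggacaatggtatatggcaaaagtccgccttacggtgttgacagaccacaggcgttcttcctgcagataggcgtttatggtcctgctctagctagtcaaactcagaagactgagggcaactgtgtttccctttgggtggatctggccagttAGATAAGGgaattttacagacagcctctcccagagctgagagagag

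The Mtmr7 peak holds the PU.1 word 2 times and had a fragment in 20 of the 173 highest cells (11.6%) and 3 of the 173 lowest (1.73%). The peak in Ntrk3 was open in 20 and 4 of these cells, and the peak in Sdcbp2 in 22 and 6. The 3 peaks of the opposite end each hold a GATA word. The Tmod3 peak was open in 20 of the lowest and 3 of the highest cells, the peak 34778 bp from the start of B4galt5 in 18 and 4, and the peak 31563 bp from the start of Slc2a1 in 28 and 8. A word is a description of the sequence and not a shown binding site. In the central 250 bases of all 76734 non-promoter peaks, the PU.1 word occurred in 6.81%, a GATA word (AGATAAGA or AGATAAGG) in 2.66% and a TEAD word (ACATTCCA, ACATTCCT, GCATTCCA or GCATTCCT) in 3.89%.

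Over all non-promoter peaks, the share of a cell's fragments in peaks with a given word also followed the axis. The share was taken from 1 group of chromosomes and the score from the other. The PU.1 word, found in 8136 non-promoter peaks, had correlations of 0.42 and 0.41 with the score for the odd-numbered and the other chromosomes over 521 cells, and took 18.9% of non-promoter fragments in the 173 highest and 17.2% in the 173 lowest cells. The RUNX words TGTGGTTA and TGTGGTTT rose as well, with correlations of 0.39 and 0.28 and shares of 21.3% against 19.9%. The other ETS word CCGGAAGT, which many other factors of the PU.1 family prefer, had correlations of -0.01 and -0.07. The TEAD words fell along the axis at -0.28 and -0.34, and 15.7% of fragments lay in such peaks in the highest against 16.9% in the lowest cells. The CTCF motif, searched by its name, fell at -0.31 and -0.32, the GATA words at -0.26 and -0.23, and the AP-1 words TGACTCA and TGAGTCA at -0.19 and -0.22. Given depth and promoter share, the signs of all these words but the other ETS word were kept, and the values were 0.41 and 0.39 for PU.1, -0.19 and -0.22 for TEAD and -0.25 and -0.21 for GATA. Of the peaks with a TEAD word, 1070 also held a PU.1 word, and shares of different words compete for the same fragments of a cell.

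When the weights learned on these 521 cells were applied to the 742 cells with suffix 1, the scores from both groups of chromosomes correlated at 0.68 there, and at 0.66 given depth and promoter share. Of the 25 loci at the Flt3 end, 21 had a correlation above 0 in those cells too, and of the 25 at the opposite end 21 had one below 0, where 48.3% of all tested loci were above 0. Single loci differed in how far they followed. The correlations there were 0.08 for Flt3, 0.14 for Cdk6, 0.21 for Cd33 and -0.10 for Gata2, but 0.02 for Kif17, -0.02 for Cd244a, 0.0026 for Ikzf1, 0.02 for Mllt3 and 0.04 for Mmrn1. The list medians there were 0.01 for the multipotent and lymphoid-primed list and -0.03 for the LT-HSC list. The PU.1 word had correlations of 0.33 and 0.25 there and the CTCF motif of -0.25 and -0.19, while the TEAD words had -0.07 and -0.04 and the GATA words 0.00 and 0.06.

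The remaining 39 cells (6.96% of the 560, 95% interval 5.0% to 9.4%) formed a minor group. The cells were also clustered on each set of chromosomes alone, and the cluster with the largest share of its cells among the 39 was taken. The overlap with the 39 thus follows in part from this choice. Clustering on odd-numbered chromosomes alone found a group of 37 cells, all among the 39, and clustering on the other chromosomes found 35, of which 34 were among the 39. Each locus is therefore described with the group found from the group of chromosomes that does not hold it, at full depth and as CPM, the fragments at the locus for each 1000000 fragments of the cells. These cells differed in quality measures as well. Their median promoter share was 65.7% (range 51.6% to 70.1%), against 51.2% (41.7% to 63.1%) in the other 521, and none of the 521 exceeded the median of the 39. Their median depth was 19153 against 14154 counts, and 4 of the 39 and 14 of the 521 had over 3 times the median counts of the table. The part of these measures in the differences below was not tested. The median ratio over all tested loci was 1.17, against which the ratios should be read.

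In the minor group, several stem cell loci were less open. Mecom had 61.2 CPM (40.3 to 89.0, an exact Poisson interval for counting error) against 379 CPM (361 to 397) in the other cells. Gata2 had 30.8 against 142 CPM, Hlf 24.9 against 126, Meis1 92.9 against 342 and Erg 63.9 against 236. Of 16 LT-HSC loci tested, 7 were at or below 0.5 of the other cells (12.1% of all 13044 loci were) and 0 were at 2 times or above (4.39% of all loci), with a median ratio of 0.53. Slamf1 (1.02), Mllt3 (1.201), Kit (1.21) and Ctnnal1 (1.49) were the members with a ratio above 1. Tek, a receptor gene of endothelium and stem cells below the minimum level, had no fragment in the group against 13.3 CPM in the other cells. The aged HSC and TAZ list was alike, with 7 of 17 at or below 0.5 and a median of 0.56, including Wwtr1 at 20.4 against 113 CPM and Amotl2 at 20.4 against 71.5. The 15 loci lowest in the group among loci open in at least 30% of the other cells were Fgf12, Iqschfp, Arhgap28, Afap1l1, Epb41l4a, Adam22, Adgrg3, Gabbr2, Slc8a1, Prdm16, Rbfox1, Adgrg1, Nwd1, Mecom and Tenm4. Of these Prdm16, a regulator of stem cell maintenance, had 48.5 against 347 CPM, and Adgrg1, an adhesion receptor, 63.9 against 438.

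The loci that led in the group were not markers of 1 lineage. The 15 with the largest ratio among those open in at least 30% of its cells were Hemk1 (181 against 41.7 CPM, with 6430571L13Rik, which shares 3 of its 4 peaks), Mllt6, Birc3, Traf2, Mpv17l2, Irf2bp2, Zfp36l1, Cflar, Btg2, Nfkbia, Arhgap25, Socs3, Usp16 and B2m. As background, Birc3, Traf2 and Cflar encode proteins of tumour necrosis factor receptor signalling, and Nfkbia an inhibitor of NF-kappa-B. Birc3 had 197 against 67.4 CPM, Traf2 222 against 76.9, Nfkbia 238 against 89.8 and Cflar 163 against 58.7. B2m, the light chain of MHC class I, had 167 against 66.0 CPM. Among non-promoter peaks the leading loci included Hemk1, Mpv17l2, Traf2, Tent5c, Ugcg, Cipc, Sirt2 and the chemokine gene Ccl5, which had 61.2 against 12.6 CPM from 14 of 35 cells.

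Some lymphoid loci had more fragments in the group. Zap70, a kinase of the T cell receptor, had 15 fragments in the group, or 34.0 CPM (19.01 to 56.03), against 5.22 CPM (3.34 to 7.76) in the other cells, and Prf1, which encodes perforin, 26.4 against 5.67 CPM. Il2rb had 4 fragments, or 9.06 CPM (2.47 to 23.2), against 1.30. These 3 were named after their values were seen, and all are below the minimum mean of the tested loci. At equal depth a fragment was found at Zap70 in 5 of 35 cells, at Prf1 in 4 of 37 and at Il2rb in 1 of 35. Tcf7, a T cell transcription factor, had 97.4 against 43.5 CPM and Lck 103.5 against 68.65. Over the T and NK cell list, 1 of 10 loci tested was at 2 times or above and 0 at or below 0.5. The median ratio of the list was 1.08, below the 1.17 of all loci. This order turned in both alternatives. The list had 1.34 against 1.03 without cells over 3 times the median counts. With non-promoter fragments only it had 1.56 against 0.86. At equal depth 10 of the 39 cells (25.6%) had at least 4 fragments over this list and 13 had none, while 32 of the 521 (6.14%) had at least 4. Cd3e, Cd3g, Cd8a and Ncr1 held no peak in the table.

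Other lists were mixed, and the single members named here do not stand for a lineage. Cd48 had 45.3 CPM (27.7 to 70.0) against 21.1 (17.1 to 25.7), whereas Flt3 had 72.5 against 154 and Cd34 11.3 against 42.4. Of the multipotent and lymphoid-primed list, Cd48 and Cd52 were at 2 times or above and 5 of 16 at or below 0.5. The MHC class II and dendritic list had 1 of 9 at 2 times or above and a median of 1.38, with H2-Eb1 at 81.5 against 43.2 CPM. Among neutrophil and monocyte loci, Gfi1 had 109 against 52.6 CPM and Irf8 52.9 against 25.9, and 2 of 11 were at or below 0.5, with a median over the list of 0.60 against 1.17 over all loci. In the megakaryocyte list 0 of 15 were at 2 times or above and 6 at or below 0.5, in the erythroid list 0 and 3 of 9, in the B cell list 0 and 2 of 7, and in the endothelial and stromal list 0 and 4 of 7. The mast cell list had 1 of 2 at 2 times or above, which was Hdc at 85.9 against 41.0 CPM. The housekeeping list had 2 of 10 at 2 times or above, with Actb at 222 against 96.7 CPM and a median of 1.37, and the immediate early and interferon lists had medians of 1.42 and 1.43. The promoter share also differed between the groups, and its part in these ratios was not tested. Ratios were therefore also taken per non-promoter fragment. The LT-HSC list then had a median of 0.55 where all 8489 loci tested had 0.86, the T and NK cell list 1.56, and the housekeeping list 0.99. By this measure 6 of 14 LT-HSC loci and 6 of 15 aged HSC and TAZ loci were at or below 0.5. Of all 8489 loci, 2710 were, a larger part than among all loci before. The interferon list turned from above 1 to 0.79. The neutrophil and monocyte list rose from 0.60 to 1.10 and the B cell list from 0.89 to 1.26. Both then lay above the 0.86 of all loci.

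**Figure D5:**
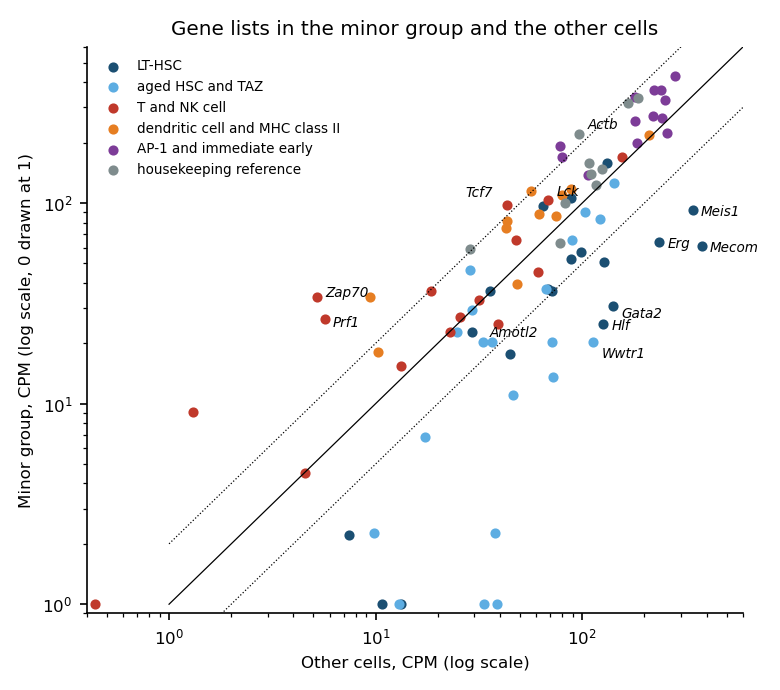
CPM at loci of 6 gene lists in the minor group (y axis) and in the other cells (x axis), both on log scales, with the group found from the group of chromosomes without the locus. The solid line marks equal values, the dotted lines a ratio of 2 in either direction, and loci with 0 in the group are drawn at 1. Mecom, Meis1, Erg, Gata2, Hlf and Wwtr1 lie below the lower dotted line, and Zap70, Prf1 and Tcf7 above the upper one.

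The group was left without a cell type name. Its leading loci were not markers of any listed type, but this does not decide the question. They had to pass the minimum share of open cells given above, which loci open in few cells cannot pass. Zap70 (ratio 6.51, open in 14.3% of cells) and Prf1 (4.66, 10.8%) did not pass it, while the leading locus Hemk1 had a ratio of 4.34. Per cell at equal depth, the median number of fragments was 1 in both the group and the other cells over T and NK cell loci, 2 in both over MHC class II loci, and 3 against 2 over myeloid loci, while over stem cell loci it was 2 against 5. Whether it is 1 kind of cell or several cannot be told apart with 39 cells. The same clustering of the 742 cells with suffix 1 gave 1 cluster and no minor group.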

How the data were processed

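Cell Ranger ATAC (version 1.2.0) and the builds mm10 and GRCm38 are named in the submitters' processing notes. The deposited table holds counts of cut sites per peak and cell, without a normalization per the labels. A second table, whose peaks have no names, was not used. Genes were taken from GENCODE M21 and sequences from RefSeq's GRCm38.

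Counts were turned into fragments and thinned to equal depth with a fixed seed. Latent semantic indexing (20 components without the first, scikit-learn 1.9.0) used peaks with a fragment in at least 5 cells, and Leiden clustering used 30 neighbours and a resolution of 0.5 (scanpy 1.11.5). Scripts were tested on simulated data. No doublet caller was run, and cells over 3 times the median counts were kept and left out as an alternative. Intervals cover counting error only, and fragments of a cell are not independent.

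The loci named are the 20 most widely open and 10 per kb of peak, the 25 with the highest index, the 8 leading loci of each co-varying set, the 8 most like Flt3, Cd34 and Cd48, the 15 leading loci of each cluster, the 10 most variable non-promoter peaks, members of 15 gene lists, the 25 loci at each end of the axis (of which 1 is not reported here), and further loci chosen after their values were seen. The cells, members and lists were chosen with earlier results of these data known.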

Additional observations from a re-analysis of the deposited data

How the results depend on the processing

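No paired analysis was possible because no cell could be matched to a sample and no group has more than 1 library. Against 147 called loci, 350 were called at 2 times the depth (414 cells) and 6470 without thinning, where deep cells weigh more. Counts as deposited, in which both ends of a fragment are counted, gave 9728. Counting each peak once per cell left 5, promoter peaks alone 55, peaks of 1 locus alone 84, and a minimum mean of 0.2 fragments 94 of 4124 loci tested. Without the highest cell of each locus 20 were called, and without the 10% of cells most uneven over chromosomes 57 in 504 cells, both alternatives chosen after seeing the data. Under a second draw (158), without deep cells (143), in the largest cluster (123), with a minimum of 0.02 (151) and with promoter and other peaks (142) or each chromosome (117) given their own expected value, the count stayed within 1.5 times.

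The median index of the 25 leading loci, 2.54, was 1.01 with each peak once, 4.11 with counts as deposited, 4.48 without thinning, 2.93 at 2 times the depth, 1.22 without the highest cell and 2.23 without the most uneven cells. The 98 loci open in at least 50% of cells became 1041 at 2 times the depth, 2629 without thinning and 9 with promoter peaks alone, and the median share of open cells over tested loci, 13.04%, became 24.2%, 33.9% and 8.75%. The mean correlation of called pairs, 0.037, was 0.0043 with each peak once, 0.00058 with suffix 1 and 0.0032 without the 4 leading cells. The correlation between both scores of the axis, 0.89, was 0.14 with promoter peaks alone and between 0.84 and 0.98 in the other settings tried. The minor group had 31 to 39 cells in every setting but clustering without thinning, which found 20 cells, 19 of them among the 39. Without deep cells, 787 loci were at 2 times or above in the group and 1771 at or below 0.5, against 573 and 1581, and per non-promoter fragment 1198 and 2710 of 8489 loci were. The causes of these changes were not tested.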
